A study of Homo sapiens with 17 samples.

Results

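The genes described are 10 regulators of the step at which a cell commits to DNA synthesis: 7 inhibitors of cyclin-dependent kinases (CDKs) and the 3 D cyclins, CCND1, CCND2 and CCND3. They were chosen by name from 63677 genes counted by Ensembl identifier, and all 10 had 1 identifier each. The set was taken up because CDKN2B rose with A-485 in Karpas-422 in an earlier look at these data. CDKN2B is therefore given as a description, with no test, wherever the Karpas-422 libraries with A-485 enter.

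D cyclins bind CDK4 and CDK6, and the active kinases phosphorylate RB1, the retinoblastoma protein, which frees E2F transcription factors to switch on the genes of DNA synthesis. INK4 inhibitors (CDKN2A, CDKN2B, CDKN2C and CDKN2D) bind CDK4 and CDK6 and keep the D cyclins off. CIP/KIP inhibitors (CDKN1A, CDKN1B and CDKN1C) bind assembled cyclin and CDK complexes, above all those of CDK2. In germinal centre B cells, and in the lymphomas that resemble them, CCND3 is the D cyclin that is mainly used.

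RNA was measured in 2 human cell lines, Karpas-422 and WSU-DLCL2, both established lines of diffuse large B cell lymphoma. The 15 libraries formed 5 groups of 3: Karpas-422 with A-485 for 48 h, untreated Karpas-422, clones of WSU-DLCL2 labelled BCL11A knockout, WSU-DLCL2 with A-485 for 48 h, and untreated WSU-DLCL2. A-485 inhibits the acetyltransferases p300 and CBP, and BCL11A encodes a zinc-finger repressor that B cells express. The names of the deposited files call the untreated libraries DMSO, the solvent. The clones were compared with the uncloned line, since no unedited clone was among the samples, and the sources used here do not give how BCL11A was disrupted. Apart from the clones, no label says whether replicates came from separate cultures, so a p-value reflects only how far these libraries scatter, which may be technical.

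Libraries differed in kind. The 9 shallow ones (Karpas-422 in both groups and WSU-DLCL2 with A-485) held 6689320 to 8897051 counts, had 43.0% to 55.5% of all reads without a unique alignment, and had the cytoskeletal gene ACTB at 3.20 to 31.9 CPM (CPM are counts over the library's own total). The 6 deep ones held 21233752 to 37286727 counts, had 7.73% to 9.24% without a unique alignment, and had ACTB at 3432 to 9994 CPM. A low CPM in a shallow library is therefore not read as low expression, and A-485 against untreated within WSU-DLCL2 is given as values alone, since A-485 there cannot be told apart from the kind of library. All 8 B cell markers looked for (among them CD79A, PAX5 and MS4A1) had counts in each group. The 6 T and NK cell markers summed to 549 to 588 CPM in Karpas-422 with A-485 and 637 to 682 CPM in untreated Karpas-422, with CD8A at 0, and the 6 epithelial and fibroblast markers to 177 to 193 and 381 to 428 CPM, with EPCAM, KRT8, KRT18, COL1A1 and COL1A2 at 0. The part of these levels in the results was not tested. Replicate 3 of untreated WSU-DLCL2 carries a treatment entry that names A-485 against its title, and it stood apart: its mean chi-square per gene was 201 and 212 against replicates 1 and 2, which differed from each other by 2.66. It was grouped by title, and for tested members, values with and without it follow.

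The stretches of 250 bases before the annotated starts are shown for CDKN2B, which moved most, for its neighbour CDKN2A, whose starts give different proteins from 1 gene identifier, and for CDKN1B, the inhibitor with the most counts in Karpas-422. They come from RefSeq on GRCh38.p14 (the counts are on GRCh37), which held starts for 7 of the 10 members; CDKN1C, CCND1 and CCND2 are named only. Capitals mark GC boxes (GGGCGG or its complement CCGCCC), which bind factors of the SP family.
CDKN2B, chr9:22009306-22009555, minus strand: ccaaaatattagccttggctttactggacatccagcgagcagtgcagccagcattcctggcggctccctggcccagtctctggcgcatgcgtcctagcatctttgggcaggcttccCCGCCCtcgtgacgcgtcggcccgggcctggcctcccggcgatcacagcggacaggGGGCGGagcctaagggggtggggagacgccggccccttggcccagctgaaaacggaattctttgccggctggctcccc
CDKN2A, start of the p14ARF transcript, chr9:21995325-21995574, minus strand: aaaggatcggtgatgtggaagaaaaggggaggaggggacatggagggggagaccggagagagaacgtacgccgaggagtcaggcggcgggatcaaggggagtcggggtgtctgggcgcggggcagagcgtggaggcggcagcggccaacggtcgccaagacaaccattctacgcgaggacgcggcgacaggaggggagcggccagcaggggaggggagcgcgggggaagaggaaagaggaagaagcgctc
CDKN2A, start of the p16INK4A transcript, chr9:21974858-21975107, minus strand: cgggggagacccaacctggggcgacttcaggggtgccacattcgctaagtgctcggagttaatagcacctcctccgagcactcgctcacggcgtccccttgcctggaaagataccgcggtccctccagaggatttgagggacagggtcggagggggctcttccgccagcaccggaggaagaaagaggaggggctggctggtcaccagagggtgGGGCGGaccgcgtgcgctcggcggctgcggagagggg
CDKN1B, chr12:12717118-12717367, plus strand: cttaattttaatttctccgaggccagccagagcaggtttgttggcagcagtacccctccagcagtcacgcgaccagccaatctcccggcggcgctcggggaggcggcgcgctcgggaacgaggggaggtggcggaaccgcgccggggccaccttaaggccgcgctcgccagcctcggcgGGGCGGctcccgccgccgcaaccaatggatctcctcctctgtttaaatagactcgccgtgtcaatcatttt
The CDKN2B stretch held 2 GC boxes, the p14ARF stretch 0, the p16INK4A stretch 1 and the CDKN1B stretch 1. Over all 35116 stretches of this length in the table, 42.6% held at least 1 on either strand. CDKN1B also had 2 CCAAT boxes (CCAAT or ATTGG, in 32% of all stretches). None of these 4 held CACGTG (6.34% of all) or TATAAA (either strand, 10.7%). These are matches of letters, not sites shown to be bound.

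With A-485, CDKN2B in Karpas-422 stood 9.06-fold higher, CDKN2A and CDKN2C rose by a smaller factor, and CDKN1B rose slightly. CDKN2D and CCND3 did not pass the test. CDKN2B, which encodes p15INK4B, the INK4 inhibitor best known for its induction by TGF-beta, had 334, 381 and 407 counts with A-485, against 44, 21 and 20 in untreated Karpas-422. Scaled by TMM, edgeR's trimmed mean of M-values, that is 37.0, 37.3 and 41.1 CPM with A-485 and 5.92, 3.18 and 3.38 CPM untreated, a log2 fold change of 3.18 ± 0.17 (SE). The lowest library with A-485 stood far above the highest untreated one.

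Of the other 9 members, 5 had enough counts to be tested and 3 rose, which are CDKN1B, CDKN2A and CDKN2C; 0 fell and 2 were not called. Over all 11846 genes tested, 71.4% were called, 37.6% up and 33.7% down, so calls are common here. The median log2 fold change of all genes was 0.08. CDKN2A, which encodes p16INK4A and, in another reading frame, the p53 activator p14ARF, stood at 11.98, 9.99 and 10.5 CPM with A-485 and at 4.30, 2.73 and 2.20 CPM untreated. Its log2 fold change was 1.78 ± 0.22 (adjusted p = 4.96e-06, edgeR quasi-likelihood, Benjamini-Hochberg). The counts are per gene and do not tell its 2 proteins' transcripts apart.

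CDKN2C, which encodes p18INK4C, an inhibitor needed for plasma cells to leave the cycle in mice, had 6.54, 7.93 and 9.10 CPM with A-485 and 2.15, 4.09 and 5.24 CPM untreated. The groups did not overlap, as was so for 74.7% of all genes tested, and the log2 fold change was 1.08 ± 0.25 (adjusted p = 0.00178, same test). CDKN2D (p19INK4D) had 12, 14 and 16 counts with A-485 against 8, 6 and 5 untreated, with a log2 fold change of 0.59 ± 0.34 that was not called (adjusted p = 0.154). Its TMM-scaled CPM did not overlap between the groups either.

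CDKN1B encodes p27KIP1, which holds resting lymphocytes out of the cycle. It had 201, 196 and 200 CPM with A-485 and 149, 146 and 145 CPM in untreated Karpas-422. That rise was small beside those of CDKN2A, CDKN2B and CDKN2C, at 0.44 ± 0.05 on the log2 scale or 1.36-fold, but the spread within each group was smaller still (adjusted p = 2.52e-06). CCND3 stood at 8.87, 8.91 and 6.97 CPM with A-485 and at 7.40, 8.49 and 6.59 CPM untreated; the groups overlapped, and the log2 fold change of 0.14 ± 0.17 was not called (adjusted p = 0.488).

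The remaining members could not be tested in Karpas-422. CDKN1A, which encodes p21CIP1, the p53-induced inhibitor, and CDKN1C (p57KIP2) had 0 counts in all 6 libraries. With a floor of 3 counts, that allows up to 0.337 to 0.385 CPM per library with A-485 and 0.366 to 0.432 CPM untreated, for counting error only. CCND1 had 0 counts over the libraries with A-485 and 2 over the untreated ones, and CCND2 had 2 and 4. The plot of CPM by library shows these members near the floor in each shallow library.

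**Figure D1:**
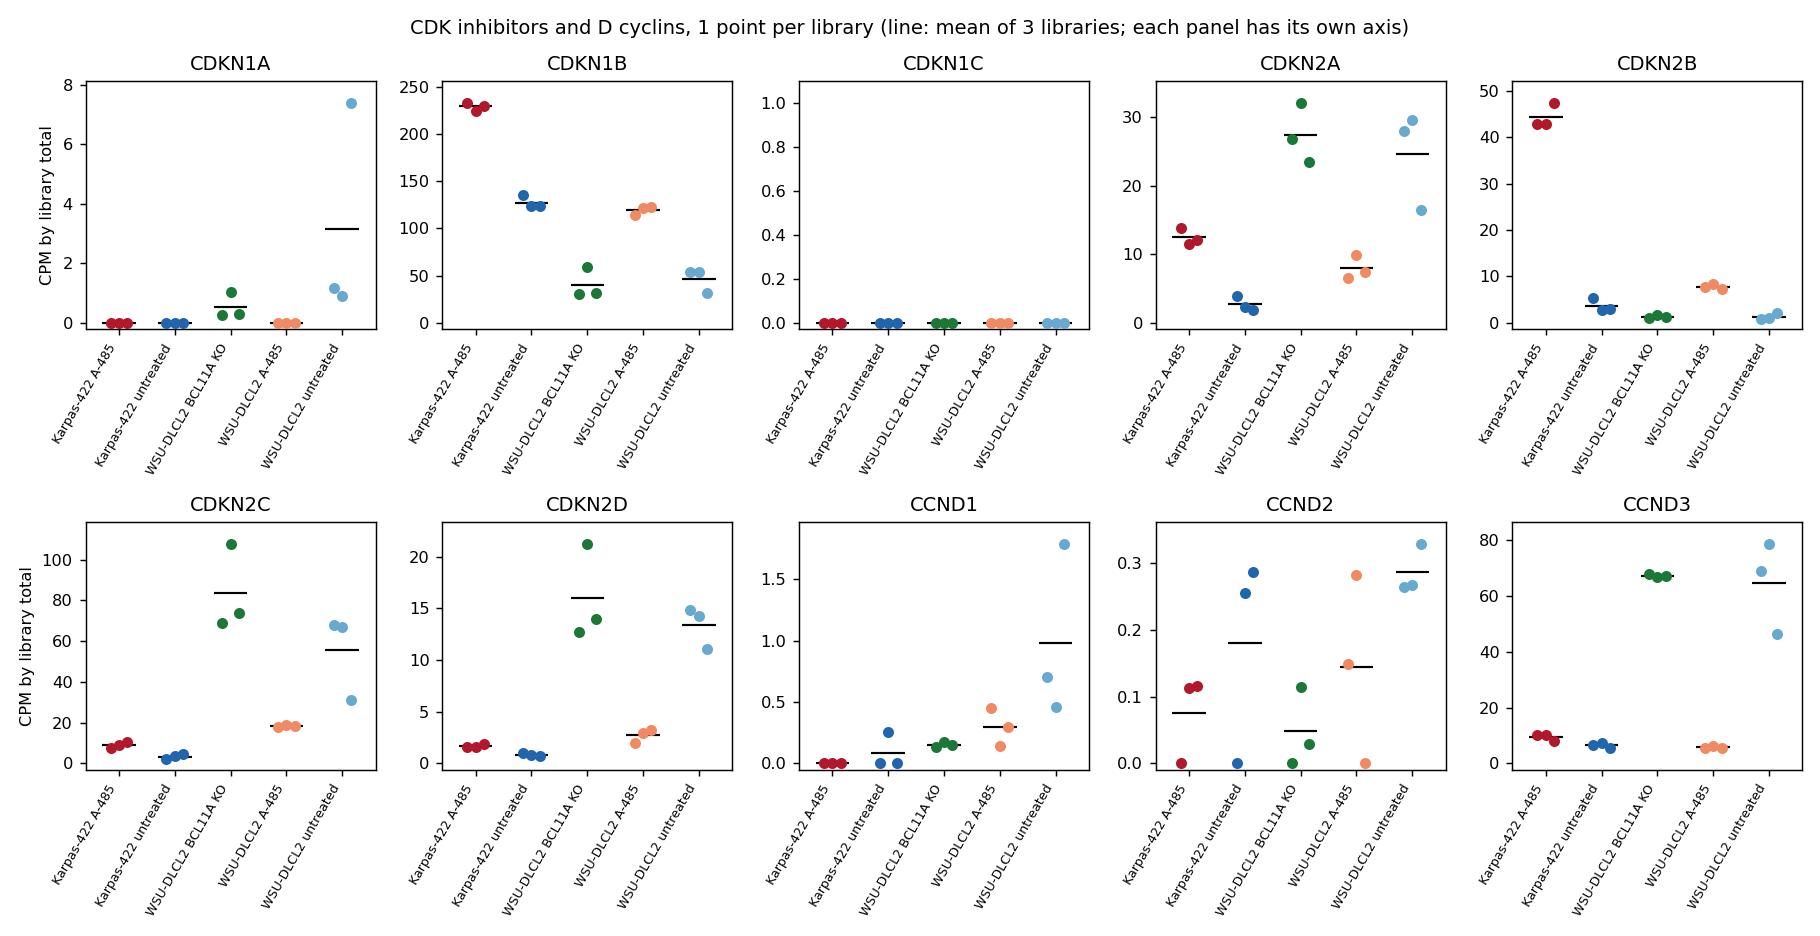
CPM by library total (vertical axis, linear, one scale per panel) of each member in 15 libraries, 1 point per library and a line at the mean of 3. CDKN2B lies between 42.8 and 47.4 CPM in Karpas-422 with A-485 and at most at 8.33 CPM in any other library, and CDKN1C is at 0 in all 15.

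Scaling bears on the smaller differences in Karpas-422. Without TMM (library sizes alone) the median log2 fold change of all genes was higher by 0.41, 5 of the 5 tested members were called up, and CDKN2D (0.99, adjusted p = 0.0163) and CCND3 (0.54, adjusted p = 0.0127) were among them. CDKN1B, CDKN2A and CDKN2C were called up under all alternatives run, leaving out each library included. Of all reads, 48.8% to 49.0% had no unique alignment with A-485 and 54.5% to 55.5% untreated, and fold changes differed with the number of annotated transcripts. Genes with 2 to 3 transcripts, such as CDKN2B, CDKN2C and CDKN2D with 3, 3 and 2, had a median log2 fold change of −0.21, and genes with 11 to 20, such as CDKN2A with 14, had 0.39. The part of these features in the result was not tested.

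**Figure D2:**
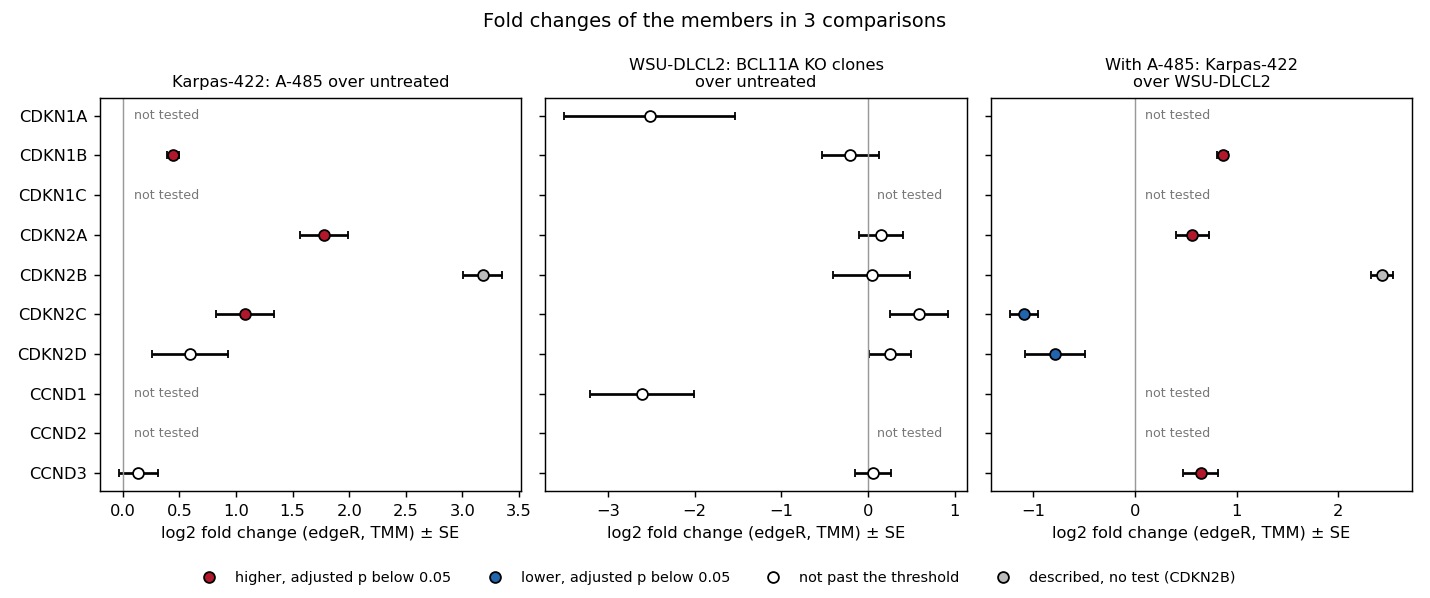
Log2 fold change (horizontal axis, edgeR with TMM, bars are SE) of each member in 3 comparisons, with filled points for adjusted p below 0.05 and grey for CDKN2B where it is only described. In Karpas-422 all tested members lie to the right of 0, from 0.14 for CCND3 to 3.18 for CDKN2B.

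The neighbours of CDKN2B on its chromosome arm changed in both directions. MTAP, which lies beside CDKN2A and CDKN2B and is often lost with them, fell to 66.3 ± 1.42 CPM with A-485, against 137 ± 4.83 CPM untreated (mean ± SD, n = 3 libraries each; −1.04 ± 0.06, adjusted p = 2.30e-09). CDKN2B-AS1 is the antisense transcript that overlaps CDKN2B, and as strand is not stated, reads of the pair cannot be told apart with certainty. It had 89 counts with A-485 and 37 untreated, a rise of 0.72 ± 0.27 (adjusted p = 0.0262). KLHL9 rose by 0.45 ± 0.07, and DMRTA1 and ELAVL2 were not tested, so 2 of the 3 tested neighbours rose and 1 fell.

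Regulators known to act on CDKN2B moved in both directions. Of 6 tested genes of the TGF-beta and MIZ1 input, 1 rose and 4 fell, with a median log2 fold change of −0.90 (2 up and 4 down with library sizes alone). SMAD4, the common partner of the receptor-activated SMADs, rose by 2.69 ± 0.16, whereas SMAD3 fell by 2.34 ± 0.14. TGFB1, the ligand, fell to 138 ± 9.11 CPM with A-485, against 277 ± 14.98 CPM untreated. MYC, which with MIZ1 (ZBTB17) represses CDKN2B, had 12 counts with A-485 and 126 untreated (−3.89 ± 0.29). Of 9 Polycomb genes and H3K27 demethylases, whose products silence or open the INK4 genes, 3 rose and 3 fell (6 up and 2 down with library sizes alone). EZH2, which writes the repressive mark, rose by 2.40 ± 0.12, CBX8, which reads it, fell by 1.36 ± 0.08, and the demethylase gene KDM6B fell by 1.12 ± 0.16.

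Partners of the D cyclins and CDKs changed in both directions too. Of 11 tested genes, which are kinases, cyclins, the kinase chaperone gene CDC37, the phosphatase gene CDC25A and the assembly factor gene MNAT1, 3 rose and 5 fell with a median of −0.25, which was 0.16 with library sizes alone (6 up, 3 down). CDK4 had 88 counts with A-485 and 46 untreated, and its log2 fold change of 0.39 ± 0.33 was not called (adjusted p = 0.307; 0.79, called, with library sizes alone). CDK6 had 761 ± 29.2 CPM with A-485 and 906 ± 93.9 CPM untreated, at −0.25 ± 0.07 (adjusted p = 0.00487), and turned to 0.16 with library sizes alone. CDK1, the mitotic kinase, rose by 1.93 ± 0.11 and CCNH, a subunit of the CDK-activating kinase, by 1.70 ± 0.15, while CCNA2, cyclin A2, fell by 0.89 ± 0.06.

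RB1 stood at 1617 ± 51.6 CPM with A-485 and 1572 ± 100.3 CPM untreated, with a log2 fold change of 0.04 ± 0.06 that was not called (adjusted p = 0.506; 0.45, called, with library sizes alone). Its relative RBL2, the p130 pocket protein of resting cells, rose to 36.5 ± 3.07 CPM, against 4.31 ± 0.722 CPM untreated (3.07 ± 0.15). TFDP1, the partner of E2F factors, fell by 1.05 ± 0.05, and E2F2 by 0.72 ± 0.06. Over the 14 tested pocket protein, E2F and DREAM genes 4 rose and 4 fell; with library sizes alone 10 rose and 3 fell.

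**Figure D3:**
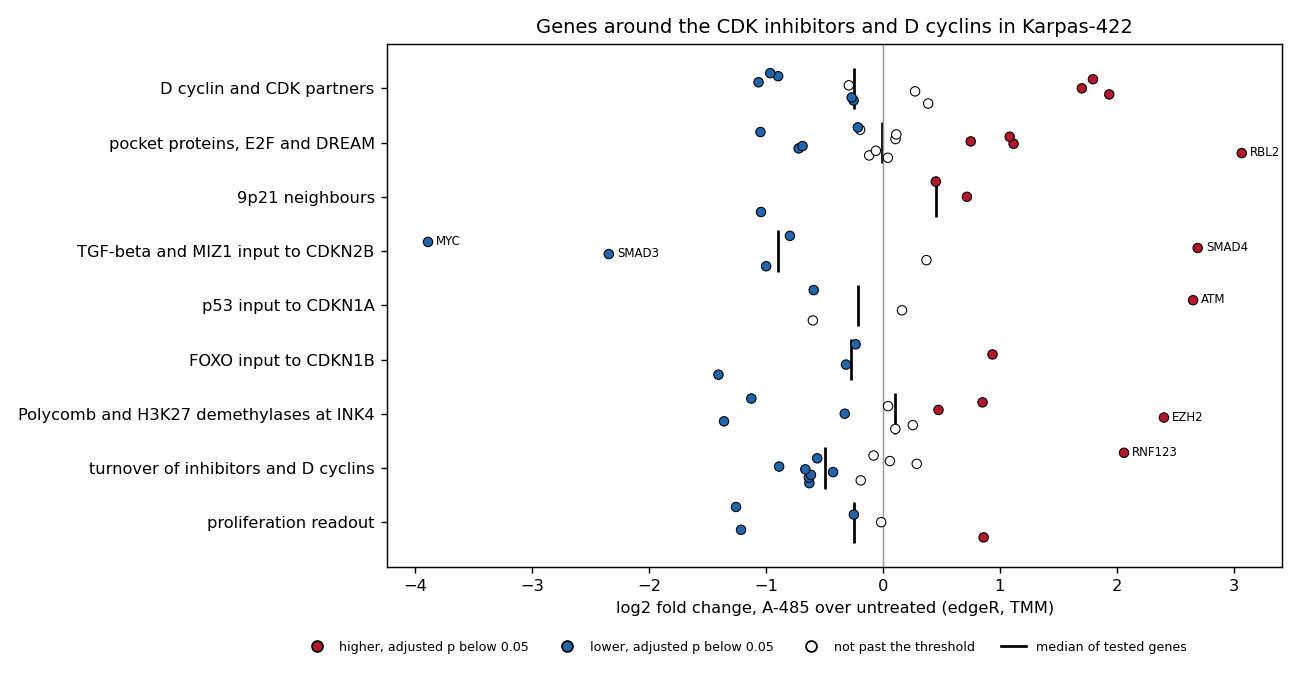
Log2 fold change with A-485 in Karpas-422 (horizontal axis) of the tested genes of 9 lists around the members, 1 point per gene, red or blue where adjusted p was below 0.05, and a black line at each list's median. RBL2 at 3.07 and MYC at −3.89 lie farthest out, and the turnover list has 7 of its 12 tested genes among those that fell (3 with library sizes alone).

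The counts for genes that act in turnover of these proteins depended on the scaling. Of 12 tested, 7 fell and 1 rose, beside 33.7% of all genes down and 37.6% up, with a median of −0.49; with library sizes alone 3 fell and 4 rose, with a median of −0.08. SKP2, which marks p27KIP1 for destruction, fell to 167 ± 5.29 CPM, against 259 ± 1.80 CPM untreated (−0.63 ± 0.05), DDB1 fell by 0.89 ± 0.08 and SKP1 by 0.63 ± 0.06. Of 4 tested genes of the p53 input, ATM rose by 2.65 ± 0.07 and CHEK2 fell by 0.59 ± 0.17 (not called with library sizes alone), while MDM2 had 50 and 52 counts with and without A-485 (−0.60 ± 0.28, adjusted p = 0.0729). Of 4 tested genes of the FOXO input to CDKN1B, FOXO1 fell by 1.41 ± 0.06 and AKT1 rose by 0.94 ± 0.16. Of 5 proliferation genes 3 fell and 1 rose (2 down and 2 up with library sizes alone): MCM2 fell by 1.26 ± 0.06 and PCNA by 1.21 ± 0.11, and CCNB1, at −0.25 ± 0.07, turned to 0.16 with library sizes alone. MKI67, the gene of the proliferation marker Ki-67, rose by 0.86 (adjusted p = 0.0421). That call was lost with RLE size factors, another scaling, where 0 of the 5 genes were called up. TOP2A, DNA topoisomerase II alpha, was at −0.01 (adjusted p = 0.889), and at 0.40 and called with library sizes alone.

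The knockout comparison shares no library with the one on which CDKN2B was picked. BCL11A RNA itself came to 58.8, 69.6 and 51.9 CPM in the clones and 46.8, 45.7 and 73.5 CPM in untreated WSU-DLCL2, so these counts do not check the labels. Of the 10 members, 8 were tested and 0 were called, as were 0% of all 16152 genes in edgeR, of which 6.92% had an unadjusted p under 0.05. DESeq2 called 298 genes (1.58% of those with an adjusted p) and 1 member, and limma-voom 2 genes and 0 members.

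CCND1 and CCND2 had few counts in this line. CCND1, the D cyclin of most solid tissues and of mantle cell lymphoma, had 4, 6 and 5 counts in the clones and 24, 17 and 38 in untreated WSU-DLCL2. After scaling these are 0.135, 0.169 and 0.152 CPM in the clones and 0.707, 0.461 and 1.76 CPM untreated, and no clone reached an untreated library; groups did not overlap for 16.5% of all genes tested. The log2 fold change was −2.61 ± 0.60 (adjusted p = 0.343, edgeR quasi-likelihood, Benjamini-Hochberg), and −1.90 ± 0.38 without replicate 3 (adjusted p = 0.0731), where 2.11% of genes were called. DESeq2 called it (adjusted p = 0.0249), and its adjusted p lay between 0.0249 and 0.954 over the alternatives. CCND2 had 0, 4 and 1 counts in the clones and 9, 10 and 7 in untreated libraries, too few for the filter.

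CCND3 had 67.8, 65.5 and 68.6 CPM in the clones and 69.1, 79.6 and 45.3 CPM in untreated WSU-DLCL2. The clones were close to one another and lay within the untreated range (0.06 ± 0.21, adjusted p = 0.966). Without replicate 3 the difference was −0.14 ± 0.08 (adjusted p = 0.417).

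CDKN1A had 8, 36 and 10 counts in the clones and 40, 33 and 157 in untreated libraries. Scaled, it was at 0.270, 1.01 and 0.305 CPM in the clones and 1.18, 0.895 and 7.26 CPM untreated, and the groups overlapped. Its log2 fold change of −2.52 ± 0.99 (adjusted p = 0.698) rested on replicate 3, without which it was −0.94 ± 0.57 (adjusted p = 0.432). CDKN1B had 30.7, 57.9 and 32.2 CPM in the clones and 53.7, 54.9 and 30.8 CPM untreated. Clone 2 was as high as untreated replicates 1 and 2, and the other clones were as low as replicate 3 (−0.21 ± 0.33, adjusted p = 0.909). Without replicate 3 its log2 fold change was −0.43 ± 0.29 (adjusted p = 0.480).

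CDKN2C had the most counts among the INK4 genes of the clones, at 69.3, 106 and 75.6 CPM, against 68.1, 67.9 and 30.7 CPM in untreated WSU-DLCL2. Each clone was above each untreated library, clones 1 and 3 by little, and the log2 fold change of 0.59 ± 0.33 was not called (adjusted p = 0.822). Without replicate 3 it was 0.30 ± 0.18 (adjusted p = 0.437). CDKN2D had 12.7, 20.8 and 14.2 CPM in the clones and 14.8, 14.4 and 10.9 CPM untreated (0.25 ± 0.25, adjusted p = 0.878), and without replicate 3 the log2 fold change was 0.13 ± 0.22 (adjusted p = 0.795). CDKN2A had 26.9, 31.4 and 24.0 CPM in the clones and 28.01, 29.9 and 16.2 CPM untreated (0.15 ± 0.26, adjusted p = 0.915). Its sign turned without replicate 3, to −0.076 ± 0.13 (adjusted p = 0.797).

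CDKN2B stayed scarce in this line, with 32, 61 and 39 counts in the clones and 28, 36 and 46 in untreated libraries. Its difference was 0.04 ± 0.44 (adjusted p = 0.989), and without replicate 3 it was 0.56 ± 0.29 (adjusted p = 0.354), not called either way. Replicate 3 differed from replicates 1 and 2 over all genes compared (mean chi-square 201 and 212), and in the members too. It was 7.18-fold the mean of replicates 1 and 2 in CDKN1A, 3.08-fold in CCND1 and 2.42-fold in CDKN2B. In CDKN2C it was 0.463-fold that mean, in CDKN2A 0.573-fold and in CDKN1B 0.583-fold. The plot of the WSU-DLCL2 libraries relative to replicates 1 and 2 shows how much of each difference hangs on it.

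**Figure D4:**
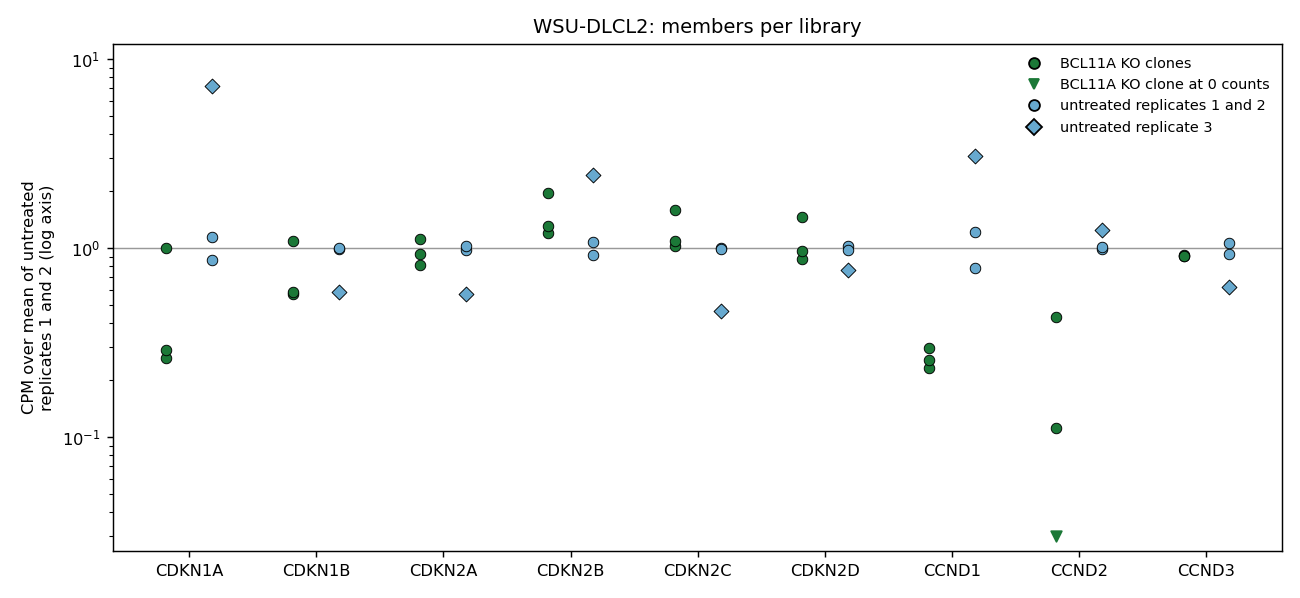
CPM of each member with counts, divided by the mean of untreated replicates 1 and 2 (vertical axis, log scale), in the clones labelled BCL11A knockout (green, left of each pair) and untreated WSU-DLCL2 (blue, replicate 3 as a diamond); a triangle marks a clone at 0 counts. Replicate 3 is at 7.18 for CDKN1A and at 0.463 for CDKN2C, and the clones lie below all untreated libraries for CCND1 and CCND2.

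None of the genes in the 9 lists around the members was called in the clones (0 of 79 tested in edgeR, DESeq2 and limma-voom alike; 3 had an unadjusted p under 0.05 in edgeR and 4 in DESeq2). CDK4 stood at 86.7 ± 16.3 CPM in the clones and 67.8 ± 10.9 CPM untreated (0.35 ± 0.19, adjusted p = 0.820), and CDK6 at 215 ± 33.7 and 247 ± 10.9 CPM (−0.20 ± 0.14, adjusted p = 0.850). CCNE1, cyclin E1, had 28.2 ± 3.57 CPM in the clones and 17.4 ± 6.43 CPM untreated (0.70 ± 0.31, adjusted p = 0.748). TFDP2 had 3.22 ± 2.11 and 12.5 ± 7.09 CPM (−1.96 ± 0.72, adjusted p = 0.654), and MYC 309 ± 42.0 and 326 ± 68.1 CPM (−0.08 ± 0.19, adjusted p = 0.942).

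The 2 lines could be compared with A-485 in both, where all libraries were shallow. This comparison shares the Karpas-422 libraries with the first. Reads outside the gene counts made up 60.9% to 61.2% in Karpas-422 and 69.4% to 70.2% in WSU-DLCL2, and their part was not tested. A difference present before A-485 cannot be told apart here from a different response to it. INK4 genes differed between the lines in both directions. CDKN2B had 41.4, 42.0 and 46.3 CPM in Karpas-422 and 8.06, 8.44 and 7.51 CPM in WSU-DLCL2, a log2 difference of 2.43 ± 0.11. CDKN2C was lower in Karpas-422, with 7.31, 8.92 and 10.2 CPM in Karpas-422 and 18.6, 19.0 and 19.0 CPM in WSU-DLCL2 (−1.09 ± 0.14, adjusted p = 1.47e-06).

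Of the 5 other tested members, 3 were higher in Karpas-422 and 2 lower, where 72.4% of 12472 genes were called, 38.1% higher and 34.3% lower. CDKN1B stood at 225, 221 and 225 CPM in Karpas-422 and 119, 123 and 126 CPM in WSU-DLCL2 (0.86 ± 0.06, adjusted p = 1.49e-10). CDKN2A was higher in Karpas-422 by 0.56 ± 0.16 (adjusted p = 0.00501) and CCND3 by 0.65 ± 0.17 (adjusted p = 0.00279), and CDKN2D was lower by a log2 difference of −0.79 ± 0.29 (adjusted p = 0.0232). These 3 calls were lost in DESeq2 (adjusted p = 0.0667, 0.0606 and 0.138), and that of CDKN2D also without replicate 1 (0.0656) or 2 (0.0695) of Karpas-422 or replicate 3 of WSU-DLCL2 (0.105). CDKN2B-AS1 had 89 counts in Karpas-422 and 5 in WSU-DLCL2 (3.69 ± 0.47), RB1 was higher in Karpas-422 by a log2 difference of 1.66 ± 0.06, and MTAP was lower, at −1.36 ± 0.06.

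Levels were set against one another per kilobase of exons (CPM by library total, per kilobase). As a low CPM in a shallow library is not read as low expression, the order there describes counts and not expression. CDKN1B led in each shallow group, at 81.7 ± 1.46 in Karpas-422 with A-485, 45.4 ± 2.44 in untreated Karpas-422 and 42.6 ± 1.51 in WSU-DLCL2 with A-485 (mean ± SD, n = 3 each). In Karpas-422 with A-485 CDKN2B came next at 10.9 ± 0.646, apart from CDKN2A at 2.88 ± 0.286 and CDKN2C at 2.73 ± 0.438, which overlapped. In untreated Karpas-422 CCND3, CDKN2C, CDKN2B, CDKN2A and CDKN2D came after CDKN1B, between 1.12 ± 0.138 and 0.547 ± 0.0911, and each overlapped the next. Places further apart were in part resolved: CCND3 did not overlap CDKN2A or CDKN2D, nor did CDKN2B overlap CDKN2D. Within each of these libraries CDKN2B was also above CDKN2A.

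In the deep libraries CDKN2C and CDKN1B had the highest means, and their ranges over the libraries of a group overlapped. CDKN2C was at 25.2 ± 6.35 in the clones and 16.7 ± 6.32 in untreated WSU-DLCL2, and CDKN1B at 14.4 ± 5.74 and 16.5 ± 4.62. Within each clone CDKN2C was above CDKN1B. In untreated WSU-DLCL2 it was above CDKN1B in replicates 1 and 2 and below it in replicate 3. CCND3 and CDKN2D followed, CCND3 at 11.6 ± 0.0753 in the clones and 11.1 ± 2.88 untreated. CDKN2B was near the bottom, at 0.328 ± 0.0898 in the clones and 0.325 ± 0.182 untreated, and CCND2 was the lowest member with any counts. As RNA came from bulk cultures, fewer cells and less RNA per cell cannot be told apart.

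Over all 15 libraries, the 5 protein-coding genes whose mean-centred log2 CPM lay nearest to that of CDKN2B, of 10657 compared, were IRF9, ERVK3-1, COX20, RGS17 and VAMP1. Their root mean square differences from it ran from 0.42 for IRF9 to 0.55 for VAMP1. IRF9 averaged 69.0 CPM in Karpas-422 with A-485, 6.02 in untreated Karpas-422, 1.79 in the clones, 5.80 in WSU-DLCL2 with A-485 and 1.78 in untreated WSU-DLCL2. The libraries share line, treatment and kind, so the likeness is a description of these 5 groups.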

How the data were processed

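The members, lists, tests and alternatives were chosen with earlier results of these data known. Read counts per gene were deposited by the authors as whole numbers, 1 file for each of 15 libraries; 3 sequencing runs of untreated WSU-DLCL2 replicate 3 shared 1 file, so 17 sample records gave 15 libraries. The submitters' processing notes name STAR 2.5.3a, RSEM and the build GRCh37 (hg19). The sources used here do not give annotation, counting program, strand or kit. The 5 summary lines of each file stayed out, which hold 27.3% to 29.7% of reads in deep libraries and 60.9% to 70.2% in shallow ones. Names came from a gene table and GENCODE 29 for 52526 of 63677 identifiers, and exon lengths and transcript numbers from GENCODE 29 (GRCh38).

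Only the 2 groups compared entered each fit in edgeR 4.0.16 (R 4.3.3): TMM scaling, filterByExpr, robust quasi-likelihood fits, two-sided tests, Benjamini-Hochberg adjustment over all genes kept, threshold 0.05. SE is the log2 fold change over the square root of F. Untested means removed by the filter. CPM in comparisons are TMM-scaled; those by library total are named so. Fits were also run on simulated data in which few genes changed. As most genes were called in Karpas-422 and between the lines, that run does not check the scaling or the calls there. DESeq2 1.42.0 and limma-voom (limma 3.58.1) were alternatives. All 10 members were named, and from each list the 3 genes with the smallest p plus CDK4, CDK6, RB1, MTAP and MYC; of these, those that add to the account are printed. Replicate pairs were compared by chi-square over genes with at least 20 counts (lowest mean 1.20), and none was merged. Counts are reads, not molecules, so floors of 3 counts cover counting error only.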

Additional observations from a re-analysis of the deposited data

Results flagged for a closer look

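In 4 members every library moved one way with A-485 in Karpas-422 and the opposite way in WSU-DLCL2, on CPM by library total; the difference between the lines was not tested, and in WSU-DLCL2 A-485 cannot be told apart from the kind of library. By the same rule 34.6% of the 11846 genes tested in Karpas-422 moved in opposite directions in the lines, and 24.6% were higher with A-485 in Karpas-422 and lower with it in WSU-DLCL2, as these 4 of the 6 tested members were. CDKN2A had 11.5 to 13.9 CPM with A-485 and 1.87 to 3.91 CPM untreated in Karpas-422 (log2 ratio of means 2.21), but 6.58 to 9.88 and 16.5 to 29.6 CPM in WSU-DLCL2 (−1.63). CDKN2C had 7.57 to 10.5 and 1.95 to 4.46 CPM in Karpas-422 (1.46), and 17.9 to 18.8 and 31.3 to 67.97 CPM in WSU-DLCL2 (−1.59). CDKN2D had 1.54 to 1.86 and 0.719 to 0.977 CPM in Karpas-422 (1.01), and 1.94 to 3.28 and 11.1 to 14.8 CPM in WSU-DLCL2 (−2.29). CCND3 had 8.03 to 10.3 and 5.61 to 7.17 CPM in Karpas-422 (0.55), and 5.38 to 6.35 and 46.2 to 78.7 CPM in WSU-DLCL2 (−3.49); under TMM scaling its libraries overlapped in Karpas-422.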

How the results depend on the processing

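In Karpas-422 the count of called members other than CDKN2B was 3 under the alternatives run, with the exception of library sizes alone (5), and all genes called ranged from 7907 to 8840 when 1 library was left out. In the knockout comparison 0 genes were called; 20 were without a filter, 298 in DESeq2, 2 in limma-voom, and 0 to 351 when 1 library was left out, 351 being without untreated replicate 3. DESeq2 called 1 member there, and the count stayed at 0 when 1 library was left out. Members near 0 turned when 1 library was left out: CDKN2B ranged from −0.21 to 0.56, CDKN2A from −0.076 to 0.31 and CCND3 from −0.14 to 0.24. Between the lines with A-485, DESeq2 called 2 members in place of 5, and leaving out 1 library gave 4 to 5. The cause of these differences was not tested. Replicate numbers were not used as pairs in the main fits. Correlations of same-numbered deviations were 0.10, 0.03 and 0.23 in the knockout comparison, 0.02, 0.06 and −0.04 in Karpas-422 and −0.18, −0.10 and 0.00 between the lines. Those of different numbers ran from −0.23 to 0.12, from −0.09 to 0.07 and from −0.09 to 0.18. Only the 0.23 of replicate 3 in the knockout comparison lay above its range, and a pairing there was not tested further. With the replicate number as a block 8250 genes and 3 members were called in Karpas-422, 0 and 0 in the clones, and 8666 and 5 between the lines. CDKN1A, CDKN1C, CCND1 and CCND2 lie at or near the floor in the shallow libraries, and CDKN1C had 0 counts in the deep ones too. The part of depth in this was not tested.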

Other observations

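In WSU-DLCL2, A-485 libraries (shallow) and untreated ones (deep) are given side by side with no test, since A-485 cannot be told apart there from the kind of library. CDKN2B had 7.77, 8.33 and 7.30 CPM by library total with A-485 and 0.822, 0.965 and 2.17 CPM untreated. CDKN1B had 115, 122 and 123 CPM with A-485 and 53.6, 54.2 and 31.4 CPM untreated. Both were higher with A-485 in each library, as they were in Karpas-422. The share of all genes that did so in both lines was not counted, and CDKN2B is the gene on which the set was picked. CDKN1A had 0 counts with A-485, which allows up to 0.423 to 0.448 CPM per library, and 40, 33 and 157 counts untreated. In untreated replicate 3, whose treatment entry names A-485, CDKN1A, CDKN2B, CCND1 and CCND2 lay above the other untreated libraries. CDKN1B, CDKN2A, CDKN2C, CDKN2D and CCND3 lay below them. On the side of the A-485 libraries were CDKN2A, CDKN2B, CDKN2C, CDKN2D and CCND3, and on the other side CDKN1A, CDKN1B and CCND1. Those libraries are shallow, and which label is right was not tested.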
